A study of Mus musculus with 12 samples.

Results

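The transcripts of 10 p53 target genes were followed in mouse macrophages whose hydrogel was stiffened with ultraviolet (UV) light, as a check for a DNA damage response to the stiffening. The genes, Cdkn1a, Ccng1, Mdm2, Bax, Bbc3, Phlda3, Trp53inp1, Sesn2, Gdf15 and Zmat3, were chosen by symbol as well-known p53 targets. All 10 were found among the 14098 genes of the table, and all 10 passed the filter on low values, as did 11194 genes in all. The series holds 12 libraries of bone marrow-derived macrophages (BMDM) in 6 groups of 2. Marrow came from C57Bl/6 mice of both sexes, 8 to 10 weeks old, either wild type (WT) or with a germline deletion of Camkk2 (Camkk2-/-, labelled KO), and was grown into BMDM with L929-conditioned medium. The BMDM of all groups were encapsulated in a gel of methacrylated collagen and hyaluronic acid and were released from it with collagenase IV at 400 U/mL before RNA extraction. In the soft groups the gel was left as cast, and in the soft+IL-4 groups the cytokine IL-4 was added to the same soft gel. In the stiff groups the gel held more collagen, and 24 h after encapsulation the photoinitiator Irgacure was soaked in and long-wave UV light was applied to crosslink the gel around the living cells. Culture then went on for 48 h, and RNA was taken at this 1 time. Each group is described as 2 biological replicates, without saying whether these were separate mice, so a p-value measures the spread between these libraries. The sample titles name both soft+IL-4 libraries of each genotype after Soft 1, and whether they shared a preparation is not stated.

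The tumour suppressor p53 is held low in resting cells by Mdm2, a ubiquitin ligase that marks it for breakdown. DNA lesions, such as those made by UV light or by reactive oxygen, activate the kinases ATM and ATR, which stabilise p53, and p53 then switches on genes for cell cycle arrest, repair and cell death, together with Mdm2 itself as a brake. A rise of the target transcripts together, rather than of p53 mRNA, is the usual transcript-level sign that the pathway is active. Stiff and soft gels differed in UV, photoinitiator, collagen content and stiffness at the same time, and no library had UV on a gel that stayed soft, so these 4 cannot be told apart in stiff against soft. The soft+IL-4 libraries had neither UV nor photoinitiator and are therefore a comparison for changes that came without exposure.

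Some libraries stood apart or went against their labels. Camkk2, the deleted gene, was at 44.2 and 11.7 TPM in the soft libraries labelled WT and at 46.6 and 11.5 TPM in the soft libraries labelled KO. In the soft+IL-4 libraries it read 30.5 and 29.8 TPM where the label was WT, and 11.5 and 8.54 TPM where it was KO. In the stiff libraries it read 23.3 and 23.7 TPM under the label WT, and 37.7 and 10.0 TPM under the label KO. Camkk2 thus went against the label of 3 libraries, WT soft 2 and the libraries numbered 1 of KO soft and KO stiff, and genotypes are given below as labels only. TPM, a length-normalised transcript abundance, divides reads by transcript length and scales each library to the same total, so the depth of a library and the counting error of a value are unknown. The 2 stiff libraries labelled WT differed from each other by a root mean square of 0.691 on the log2(TPM + 1) scale, against 0.293 to 0.390 between the libraries of the other groups. The 8 macrophage markers tested were all detected, at 23571 to 57980 summed TPM, and summed markers of neutrophils, dendritic cells, B cells, T or NK cells, mast cells, erythroid cells and fibroblasts stayed at or below 25.8 TPM in every library.

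None of the 10 p53 targets passed the test between stiff and soft gels, in either labelled genotype. limma was applied to log2(TPM + 1) values, and a gene was called at a Benjamini-Hochberg adjusted p under 0.05 over all 11194 genes. In the libraries labelled WT 0 of 10 were called, where 10.6% of all genes were, and in those labelled KO 0 of 10, where 0.0447% were. In the mean of both labels it was again 0 of 10, against 6.47% of all genes. At an unadjusted p under 0.05 there were 2 of 10 in WT, 0 of 10 in KO and 2 of 10 in the mean, and the 2 were Cdkn1a and Phlda3 both times. The median log2 fold change of the 10 genes was -0.04 in WT, 0.02 in KO and -0.01 in the mean, beside 0.02, -0.01 and 0.00 over all genes. The median absolute change was 0.116 in the mean, beside 0.134 over all genes. The 95% intervals use a spread shared by all groups. Replicates differed more in WT stiff than elsewhere, so limits that involve WT may be too narrow. Within each labelled genotype the upper limit lay below 2-fold for 7 of the 10 genes. The exceptions were Cdkn1a (2.02-fold), Gdf15 (2.20-fold) and Phlda3 (2.30-fold) in WT, and Sesn2 (2.10-fold), Phlda3 (2.12-fold) and Gdf15 (2.51-fold) in KO. In the mean of both labels it lay below 2-fold for all 10, with the highest at 1.96-fold for Phlda3, and below 1.2-fold for 6 of them. The limits of 2-fold and 1.2-fold were picked after the values were seen.

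**Figure D1:**
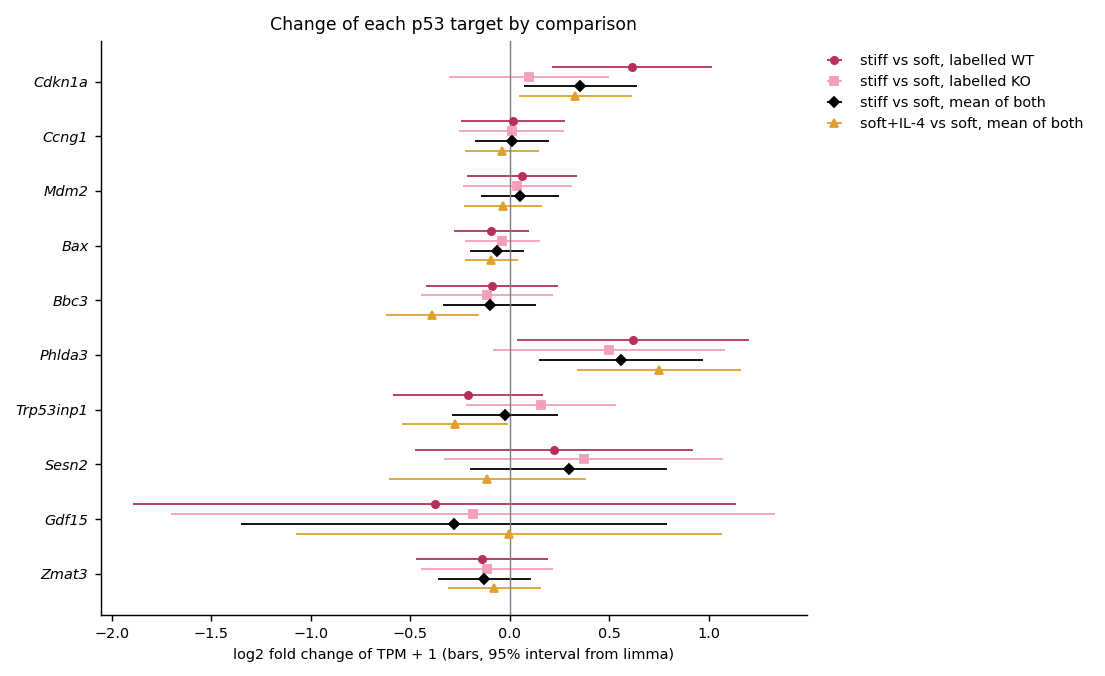
Log2 fold change of TPM + 1 (x axis) of each p53 target (y axis) between stiff and soft gels in the libraries labelled WT (circles), labelled KO (squares) and in their mean (diamonds), and between soft+IL-4 and soft (triangles); bars are 95% intervals from limma. Most targets sit close to 0 in stiff against soft, Cdkn1a at 0.35 and Phlda3 at 0.56 in the mean lie to the right, and the interval of Gdf15 is the widest.

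Cdkn1a encodes p21, the inhibitor of cyclin-dependent kinases through which p53 halts the cell cycle. The gene spans chr17:29090976-29100727 on the + strand (GENCODE vM21, GRCm38), and its exons overlap an annotated gene of the opposite strand. Cdkn1a stood at 145 and 148 TPM in WT soft, 286 and 176 TPM in WT stiff, 140 and 153 TPM in KO soft and 159 and 154 TPM in KO stiff. All 4 stiff libraries lay above all 4 soft libraries, KO stiff 2 only just, and 1 library, WT stiff 1, stood far above the rest. Cdkn1a was the 1 member of 10 whose 4 stiff and 4 soft libraries did not overlap, as was the case for 8.84% of all genes. The log2 fold change was 0.61 in WT (SE 0.179, 95% interval 0.21 to 1.02, adjusted p = 0.0599), 0.09 in KO (SE 0.179, adjusted p = 1.0) and 0.35 in the mean (SE 0.126, adjusted p = 0.150). Single libraries decided this call. Without WT stiff 1 the value in WT shrank to 0.26 and passed (adjusted p = 0.0482), and without WT stiff 2 it was 0.96 (adjusted p = 2.41e-05). In the mean it passed likewise without WT stiff 1 (0.18, adjusted p = 0.0419) and without WT stiff 2 (0.53, adjusted p = 9.2e-05). Median-of-ratios scaling also brought the WT value past the threshold (adjusted p = 0.0310). Over all alternatives the adjusted p ran from 2.41e-05 to 0.441 in WT and from 9.2e-05 to 0.768 in the mean.

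A p53 response element consists of a pair of half-sites of 10 bases each, and the promoter windows of RefSeq (GRCm38.p6, from 250 bases before to 50 bases after each transcript start) were searched on both strands for a pair with at most 2 mismatches, intact C and G core letters and a spacer of up to 13 bases. Windows were found for 8 of the 10 genes, and 3 of these, Cdkn1a, Ccng1 and Bax, held such a pair, against 4.71% of the 27025 genes with a window. The sites are shown as matches to this pattern. The half-sites are in capitals, the spacer and flanks in lower case, and each is written on the strand of its gene.
Cdkn1a: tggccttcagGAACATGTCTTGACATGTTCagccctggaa
Ccng1: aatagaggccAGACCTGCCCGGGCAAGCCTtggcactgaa
Bax: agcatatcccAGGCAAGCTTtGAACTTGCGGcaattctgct
The Cdkn1a pair lies at chr17:29090928-29090947 (+ strand), 51 to 32 bases before the more upstream of 2 annotated starts, with 1 mismatch and no spacer, and the window of the other start held none. The Ccng1 pair lies at chr11:40755462-40755481 (- strand), 195 to 176 bases before the start, with 1 mismatch. The Bax pair lies at chr7:45467079-45467099 (- strand), 201 to 181 bases before the start, with 2 mismatches and a spacer of 1 base. A match describes the letters only. p53 binding was not measured, and elements outside these windows, such as those within introns, were not searched.

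Ccng1 encodes cyclin G1, which recruits a phosphatase to Mdm2 and is long known as a p53 target. Ccng1 (chr11:40748552-40755311, - strand) was level. It was at 39.1 and 38.4 TPM in WT soft, 42.4 and 36.2 TPM in WT stiff, 36.0 and 40.1 TPM in KO soft and 37.2 and 39.3 TPM in KO stiff. The stiff libraries spanned the soft ones in WT and lay within them in KO. The log2 fold change in the mean was 0.01 (95% interval -0.17 to 0.20, adjusted p = 0.967). The Ccng1 promoter window holds a pair of half-sites, as that of Cdkn1a does, and the 2 genes' changes were not tested against each other.

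Mdm2 (chr10:117688875-117710758, - strand), the ubiquitin ligase of the feedback loop, was level too. It stood at 55.1 and 55.4 TPM in WT soft, 65.4 and 50.8 TPM in WT stiff, 55.3 and 54.7 TPM in KO soft and 60.8 and 52.5 TPM in KO stiff. The 4 soft libraries lay between 54.7 and 55.4 TPM, and the stiff libraries fell on both sides of them, number 1 above and number 2 below in each genotype. The log2 fold change was 0.06 in WT, 0.04 in KO and 0.05 in the mean (95% interval -0.15 to 0.24, adjusted p = 0.831). The upper limit was 1.18-fold in the mean, 1.26-fold in WT and 1.24-fold in KO. Trp53, the gene of p53 itself, was at 51.4 to 73.0 TPM in the 8 soft and stiff libraries. WT stiff 1 held its lowest value. Stiff against soft, Trp53 had a log2 fold change of -0.24 in WT (adjusted p = 0.258) and of -0.00 in KO.

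**Figure D2:**
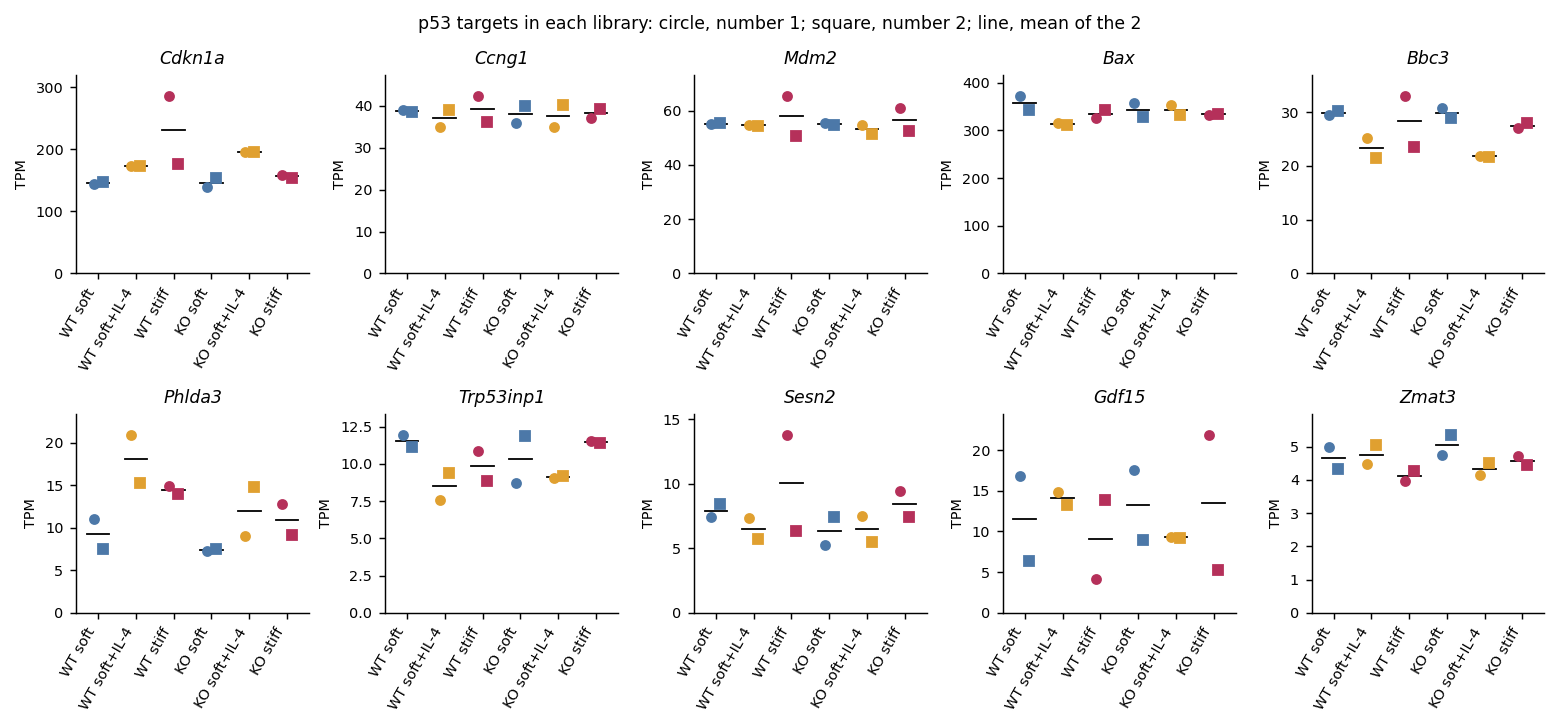
TPM (y axis, from 0) of the 10 p53 targets in each of the 12 libraries, by labelled genotype and matrix (x axis). Circles are libraries numbered 1, squares those numbered 2, and lines the mean of the 2; the 286 TPM of Cdkn1a in WT stiff 1 stands out, Ccng1, Mdm2 and Bax are level, and Gdf15 scatters within groups.

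The members that promote cell death, Bax and Bbc3, had small values of the same sign that did not pass the test. Bax (chr7:45461697-45466898, - strand) encodes the pore-forming protein of the mitochondrial outer membrane and shares exons with an annotated gene of the same strand. It was at 373 and 342 TPM in WT soft, 327 and 343 TPM in WT stiff, 357 and 328 TPM in KO soft and 333 and 334 TPM in KO stiff. The groups overlapped in both genotypes, and the log2 fold change in the mean was -0.06 (95% interval -0.20 to 0.07, adjusted p = 0.631), with an upper limit of 1.05-fold. Bbc3 (chr7:16308393-16318205, + strand) encodes PUMA, a BH3-only protein that frees Bax. It was at 29.4 and 30.1 TPM in WT soft, 33.0 and 23.5 TPM in WT stiff, 30.8 and 28.8 TPM in KO soft and 27.0 and 28.0 TPM in KO stiff. Its stiff libraries surrounded the soft ones in WT and lay just below them in KO, and the change in the mean was -0.10 on the log2 scale (SE 0.104, adjusted p = 0.674).

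Phlda3 (chr1:135766119-135769136, + strand), a small pleckstrin-homology protein that competes with the survival kinase AKT for membrane lipid, had the largest difference of the 10 in the mean. Phlda3 was at 11.0 and 7.44 TPM in WT soft, 14.9 and 13.9 TPM in WT stiff, 7.29 and 7.44 TPM in KO soft and 12.8 and 9.16 TPM in KO stiff. Within each genotype both stiff libraries lay above both soft libraries, and across genotypes KO stiff 2 fell below WT soft 1. The share of all genes with such a separation within a genotype is not given here. The log2 fold change was 0.62 in WT (SE 0.259, adjusted p = 0.185), 0.50 in KO (SE 0.259, adjusted p = 1.0) and 0.56 in the mean (95% interval 0.15 to 0.97, adjusted p = 0.116). Over all alternatives the adjusted p in the mean ran from 0.0802 to 0.827, so Phlda3 passed under none of them. Trp53inp1 (chr4:11156431-11174379, + strand), which encodes a nuclear protein that assists p53, was at 11.9 and 11.1 TPM in WT soft, 10.9 and 8.84 TPM in WT stiff, 8.70 and 11.9 TPM in KO soft and 11.5 and 11.4 TPM in KO stiff. Its change was -0.21 in WT and 0.16 in KO, and neither passed the test.

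Of the remaining 3 members, Sesn2 and Gdf15 also answer to stress pathways besides p53. Sesn2 (chr4:132492032-132510501, - strand), a leucine sensor that restrains mTORC1 and is also an ATF4 target, was at 7.45 and 8.39 TPM in WT soft, 13.8 and 6.31 TPM in WT stiff, 5.29 and 7.40 TPM in KO soft and 9.45 and 7.44 TPM in KO stiff. The highest value again belonged to WT stiff 1, while WT stiff 2 was lower than both WT soft libraries. The log2 fold change in the mean was 0.30 (SE 0.220, adjusted p = 0.539). It was 0.55 without WT stiff 2 (adjusted p = 0.0410) and 0.04 without WT stiff 1 (adjusted p = 0.904).

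Gdf15 (chr8:70629393-70632456, - strand), a secreted stress hormone of the TGF-beta family and a target of p53 as well as of ATF4 and CHOP, was the least repeatable member. It was at 16.8 and 6.34 TPM in WT soft, 4.20 and 13.9 TPM in WT stiff, 17.6 and 8.93 TPM in KO soft and 21.8 and 5.27 TPM in KO stiff. Replicates differed more than groups did, and the log2 fold change in the mean was -0.28 with a 95% interval from -1.35 to 0.79. The 3 libraries with the highest Gdf15 were KO stiff 1, KO soft 1 and WT soft 1, which were also the 3 with the highest Camkk2, and the part of Camkk2 in this was not tested. Zmat3 (chr3:32334792-32366014, - strand), an RNA-binding protein that regulates splicing downstream of p53, was the lowest in level, at 4.97 and 4.33 TPM in WT soft, 3.96 and 4.28 TPM in WT stiff, 4.76 and 5.34 TPM in KO soft and 4.72 and 4.43 TPM in KO stiff. Both stiff libraries were below both soft libraries in each genotype, by a log2 fold change of -0.13 in the mean (SE 0.104, adjusted p = 0.581). Of the 10 members, 2 lay wholly above the soft libraries in WT and 2 wholly below, and in KO these were 3 and 2. The share of all genes so separated within a genotype is not given here.

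Under IL-4, given without UV, Phlda3 and Bbc3 were called, a share of the members near that of all genes. The IL-4 and stiff comparisons use the same 4 soft libraries, so their values are not independent and are only set side by side. In soft+IL-4 against soft, 2 of 10 members were called in the mean of both labels, where 22.9% of all genes were. Phlda3 rose to 20.9 and 15.3 TPM in WT and to 9.04 and 14.8 TPM in KO (log2 fold change 0.75, 95% interval 0.34 to 1.16, adjusted p = 0.0166), beside 0.56 in the stiff gel. Bbc3 fell to 25.1 and 21.5 TPM in WT and to 21.8 and 21.7 TPM in KO (log2 fold change -0.39, 95% interval -0.62 to -0.15, adjusted p = 0.0250), beside -0.10 in the stiff gel. Neither call was firm. Phlda3 no longer passed without WT soft 2, WT soft+IL-4 1 or KO soft+IL-4 2 (adjusted p = 0.0611 to 0.0710). Bbc3 no longer passed without any 1 of 7 of the 8 libraries (adjusted p = 0.0536 to 0.0901), WT soft+IL-4 1 being the exception (adjusted p = 0.0391). Cdkn1a was at 173 and 173 TPM in WT and 196 and 195 TPM in KO under IL-4. All 4 values lay above all 4 soft libraries, and the 4 values of Bbc3 lay below them. The share of all genes without overlap in this comparison is not given here. The change was 0.33 on the log2 scale (adjusted p = 0.0956), and that in the stiff gel was 0.35. Trp53inp1 had a log2 fold change of -0.28 (adjusted p = 0.129), and the other 6 members were within -0.11 and -0.00.

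Set against each other directly, stiff and soft+IL-4 libraries differed in 0 of 10 members, where 1.01% of all genes were called. At an unadjusted p under 0.05 there was 1, Bbc3, at a log2 fold change of 0.29 (adjusted p = 0.225). Cdkn1a differed by 0.03 (95% interval -0.26 to 0.31) and Phlda3 by -0.19 (95% interval -0.60 to 0.22), so the 2 members that were highest in the stiff gel were not higher there than under IL-4 beyond the spread. These values turn on WT stiff 2, without which Bbc3 (0.41, adjusted p = 0.00387), Cdkn1a (0.20, adjusted p = 0.0150) and Sesn2 (0.66, adjusted p = 0.0153) passed.

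The stiff effect was not shown to depend on the labelled genotype in any member. In the interaction 0 of 10 members were called, where 0.974% of all genes were, and none had an unadjusted p under 0.05. The largest difference was that of Cdkn1a, with an effect lower by 0.52 in KO than in WT (log2 difference -0.52, 95% interval -1.09 to 0.05, adjusted p = 0.512). This too turned on 1 library. Without WT stiff 2 the difference was -0.87 (adjusted p = 0.000478), and without WT stiff 1 it was -0.17 (adjusted p = 0.487).

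WT stiff 1 held the highest value of more members than any other library. The share of all genes that peaked in it was not counted, and replicates differed more in WT stiff than in any other group. Of the 10 members, 5 had their highest value of all 12 libraries in WT stiff 1, namely Cdkn1a, Ccng1, Mdm2, Bbc3 and Sesn2. Gdf15 and Zmat3 had their lowest there. The same library was high in proliferation genes. The 24 listed cell cycle genes that p53 and p21 repress summed to 1071 TPM in WT stiff 1, against 515 to 775 TPM in the other 11 libraries, and 23 of the 24 were highest there. Birc5, which encodes survivin and was chosen after its values were seen, was at 99.5 TPM in WT stiff 1 and at most 19.4 TPM in the other 11 libraries. The highest Cdkn1a level was thus found in the library with the highest sum of genes that p21 represses. The 14 NRF2 targets, which answer to oxidants, summed to 2115 TPM in WT stiff 1, against 4866 to 6372 TPM in the other 11 libraries. The part of the proliferation genes and of the NRF2 targets in the Cdkn1a level of this library was not tested.

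**Figure D3:**
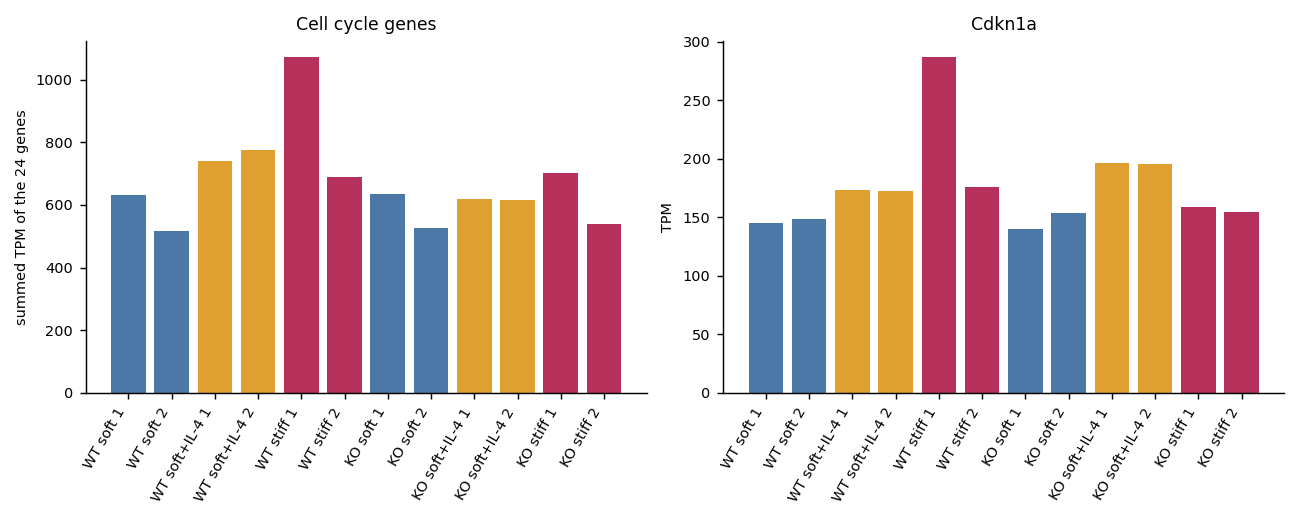
Summed TPM of the 24 cell cycle genes (left) and TPM of Cdkn1a (right), y axes from 0, in each of the 12 libraries (x axis; blue soft, yellow soft+IL-4, red stiff). WT stiff 1 holds the tallest bar in both panels, at 1071 and 286 TPM.

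Among the 5 genes whose log2(TPM + 1) followed Cdkn1a most closely over the 12 libraries were Cdh1 (Pearson r 0.974), Azin2 (0.974), Bcl2a1b (0.972) and Rnase4 (0.972). Cdh1 encodes the adhesion protein E-cadherin, Azin2 a regulator of polyamine synthesis, Bcl2a1b a BCL-2 family member and Rnase4 a secreted ribonuclease. Each of these 4 was highest in WT stiff 1 and had a higher mean under IL-4 than in soft gels, for example Rnase4 at a mean of 33.0 TPM in soft and 72.4 TPM in soft+IL-4 libraries. Rnase4 reached 533 TPM in WT stiff 1 and at most 77.4 TPM in the other 11 libraries. Left without WT stiff 1 and KO soft 1, the r of the 4 genes was 0.891 to 0.920 over 10 libraries. These 2 libraries lay farthest from the median log2(TPM + 1) of Cdkn1a, KO soft 1 only just ahead of KO soft+IL-4 1. The 12 points share replicate groups and matrix conditions, so these are descriptions. Bcl2a1b has near-identical copies in the genome, and its value is uncertain.

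Some other p53 targets were called, in both directions. Of 28 further targets listed, 24 passed the filter. In WT stiff against soft 2 were higher, 3 were lower and 19 did not pass, where 10.6% of all genes were called. In KO none of the 24 passed, where 0.0447% of all genes did. In the mean 1 was higher and 2 lower, where 6.47% of all genes were called. The median log2 fold change was -0.09 in WT and -0.05 in the mean. Plk3, a stress-response polo-like kinase, was higher in the mean by 0.92 (adjusted p = 0.00816). Sesn1, the sister of Sesn2, was lower by a log2 fold change of -0.70 (adjusted p = 0.0101). Its labelled genotypes differed in this. In WT, Sesn1 was at 118 and 145 TPM in soft gels and at 46.5 and 61.1 TPM in stiff gels. In KO it was at 105 and 143 TPM in soft gels and at 106 and 119 TPM in stiff gels. Gadd45a, a classical UV- and damage-induced p53 target that acts in growth arrest and repair, was lower by a log2 fold change of -0.69 (adjusted p = 0.00834). The exons of Plk3 and Gadd45a overlap annotated genes of the opposite strand. In WT alone Pmaip1, the BH3-only protein NOXA, was lower (-0.99, adjusted p = 0.0160), and Rps27l, which was chosen after its value was seen and has a close copy in Rps27, was higher (0.49, adjusted p = 0.0378).

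The same 5 genes were also called under IL-4, with no UV, where 22.9% of all genes were called. Plk3 changed there by 1.65, Sesn1 by -1.03, Gadd45a by -1.33, Pmaip1 by -1.24 and Rps27l by 0.49. Each had the sign it had in the stiff gel. Both comparisons use the same soft libraries and the 5 genes were picked by their stiff call, so a shared sign is a description only. Set directly against soft+IL-4, Gadd45a was higher in the stiff gel (0.64, limma adjusted p = 0.0409), the only 1 of the 24 called. It did not pass without the variance trend (adjusted p = 0.0704), without the filter (0.0622) or with only the libraries compared (0.0890). Nor did it pass with genotype left out of the model (adjusted p = 0.321), or without most of the libraries taken singly. In WT, Gadd45a stood at 29.7 and 38.1 TPM in the soft gels, at 11.7 and 14.6 TPM with IL-4, and at 13.1 and 11.6 TPM in the stiff gels. In KO it stood at 31.8 and 38.1 TPM in the soft gels, at 11.7 and 14.3 TPM with IL-4, and at 34.9 and 34.7 TPM in the stiff gels. The stiff libraries thus resembled the IL-4 libraries in WT and the soft libraries in KO. The number of the 24 that passed in WT ran from 2 to 9 when single libraries were left out, with 6 without WT stiff 1 and 9 without WT stiff 2, and it was 0 without the 3 libraries that Camkk2 set against their labels. Plk3 did not pass in WT without WT soft 1 (1.06, adjusted p = 0.0693), and Sesn1 did not pass in the mean without KO stiff 1 (-0.66, adjusted p = 0.0537). None of the 3 calls in the mean held without the 3 libraries, where the adjusted p was 0.197 for Plk3, 0.168 for Sesn1 and 0.225 for Gadd45a. With genotype left out of the model it was 0.0839 for Plk3, 0.193 for Sesn1 and 0.267 for Gadd45a.

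**Figure D4:**
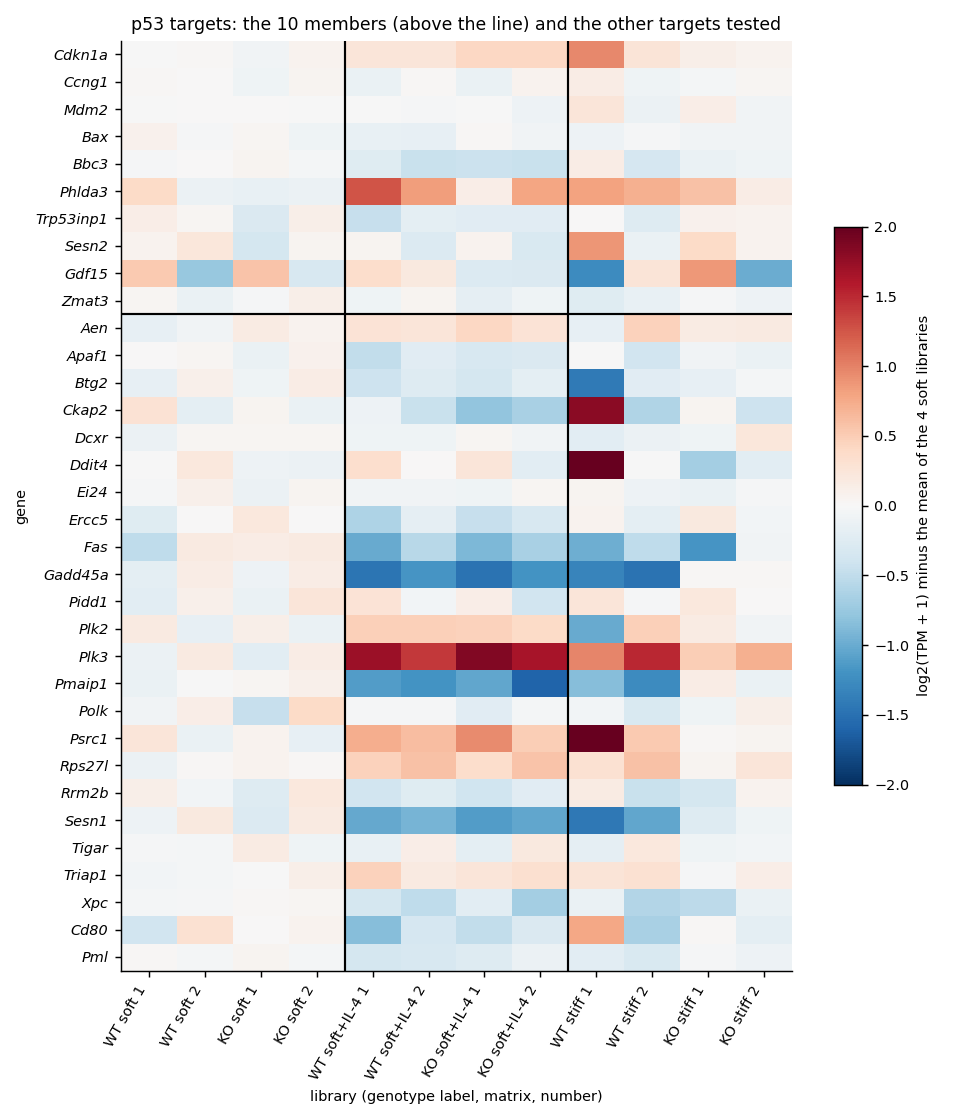
Log2(TPM + 1) minus the mean of the 4 soft libraries (colour, from -2 in blue to 2 in red) for the 10 members above the line and the 24 other p53 targets below it (y axis), in the 12 libraries ordered by matrix (x axis). Gadd45a, Pmaip1 and Sesn1 are blue and Plk3 red in the soft+IL-4 columns and in the WT stiff columns, while the KO stiff columns are pale for most genes.

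The counts called in the upstream and neighbouring pathways turned on single libraries. Over all genes 10.6% were called in WT and 6.47% in the mean. Of 13 tested genes for p53 and its regulators 1 was higher in WT, the checkpoint kinase Chek2 (0.69, adjusted p = 0.0489), and 0 were called in the mean, with 2 at an unadjusted p under 0.05. Of 15 genes of nucleotide excision and UV repair, the pathway that removes UV photoproducts, 1 was higher in WT, Rad23b (0.35, adjusted p = 0.0295), and 0 were called in the mean, again with 2 at an unadjusted p under 0.05. In KO the log2 fold changes of Chek2 and Rad23b were -0.06 and -0.00. Chek2 did not pass without either WT soft library or without WT stiff 1 (adjusted p = 0.136 to 0.235), and Rad23b did not pass without either WT soft library (adjusted p = 0.0708 to 0.196). The repair genes called in WT numbered 3 without WT stiff 2, all of them higher. Of the 14 NRF2 targets 1 was called in WT, glutathione reductase (Gsr), which was lower (-0.78, adjusted p = 0.0164) and did not pass without either WT soft library (adjusted p = 0.0809 to 0.104). The direction of this list changed with the library left out, as 11 targets were called and all 11 lower without WT stiff 2, while 3 were higher and 1 lower without WT stiff 1.

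Among 15 genes of the integrated stress response, a list that includes Sesn2, 3 were higher in WT, namely Phgdh (1.91), Atf5 (1.64) and Asns (0.93), which encode an enzyme of serine synthesis, a transcription factor and asparagine synthetase. In the mean 1 passed, Phgdh (1.02, adjusted p = 0.0230). All 3 were also called under IL-4, where 22.9% of all genes were, beside 10.6% in WT and 6.47% in the mean of stiff against soft. The IL-4 call of Atf5 was not firm. Atf5 did not pass there with genotype left out of the model (limma adjusted p = 0.115), or without most of the libraries taken singly. The number called in WT ran from 1 to 7 when single libraries were left out, with 6 without WT stiff 1 and 7 without WT stiff 2, and Phgdh in the mean did not pass without 4 of the 8 libraries taken singly (adjusted p = 0.0749 to 0.101). Without the 3 libraries that Camkk2 set against their labels, 0 genes of any list beside the members were called in WT, in KO or in the mean. The 24 cell cycle genes had a median log2 fold change of 0.84 in WT with 0 called and 1 at an unadjusted p under 0.05, and 22 of them were called without WT stiff 2 but 0 without WT stiff 1. The most abundant of them, the replication clamp Pcna and the transcription factor E2f1, had changes of 0.04 and 0.16 in the mean. The median of the 24 genes there was 0.41, within a range of 0.04 to 0.90, and Pcna was the lowest. In the BCL-2 family 1 of 10 was higher in WT, Bcl2a1b (2.06), and 3 were lower, Bmf (-1.32), Pmaip1 and, chosen after its value was seen, Bcl2l1 (-0.76). In KO no gene of these lists was called by limma, and of the 111 genes tested on all lists beside the members 1 had an unadjusted p under 0.05, Plk3.

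**Figure D5:**
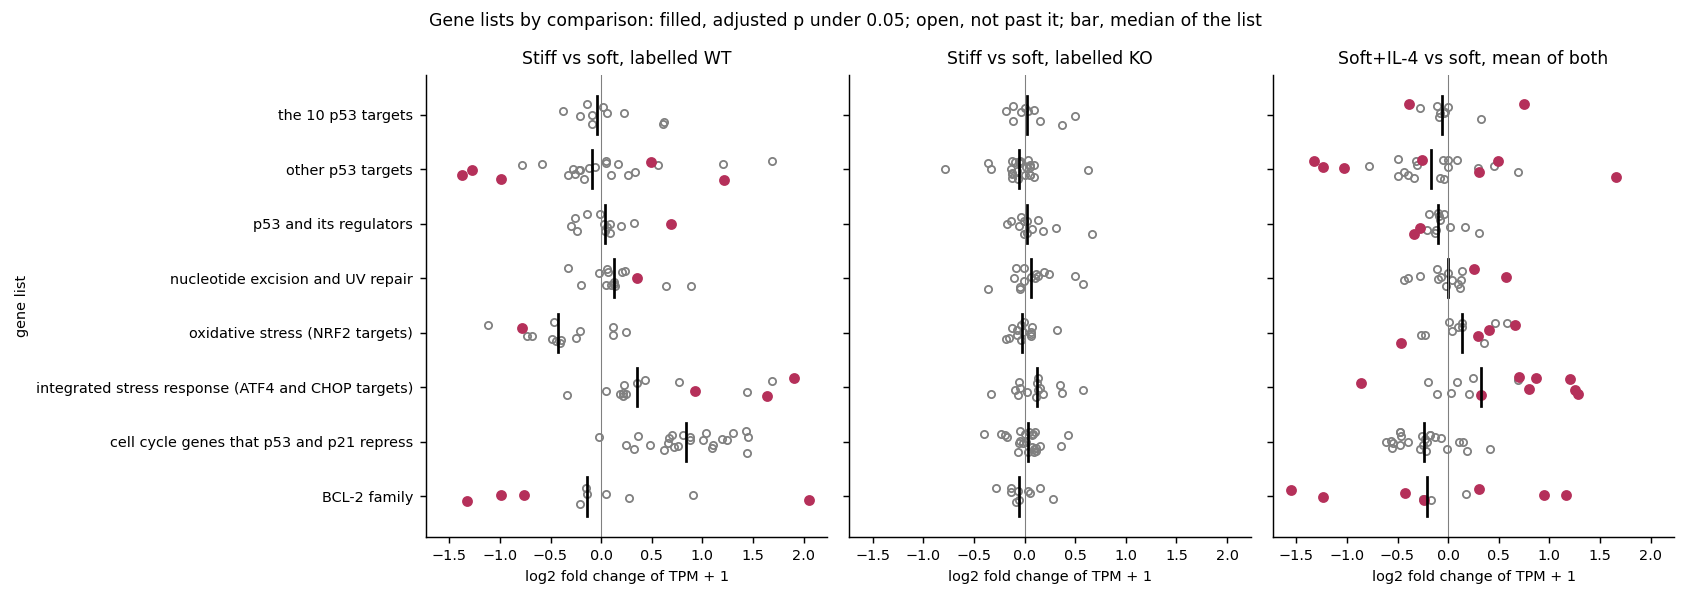
Log2 fold change of TPM + 1 (x axis) of every tested gene of 8 lists (y axis) in stiff against soft gels labelled WT and labelled KO and in soft+IL-4 against soft; filled points passed at an adjusted p under 0.05 and bars are list medians. The bar of the cell cycle genes lies at 0.84 in WT and at 0.04 in KO, and the 10 p53 targets have no filled point in either stiff panel.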

How the data were processed

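RNA of the 12 libraries was poly-A selected and sequenced from strand-marked libraries. The authors deposited 1 table of TPM values, scaled to 1000000 in each library. The submitters' processing notes name Trim Galore 0.6.7, Salmon 1.4.0 and the mm10 build, whereas the methods of the study describe STAR, featureCounts and DESeq, so how the TPM values were made, the annotation and the use of strand are not settled. Read counts and depth are unknown, and 0 columns were left unused.

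Groups were taken from the sample labels. A gene was tested if 2 or more libraries reached 1 TPM, on the scale log2(TPM + 1), which understates changes of low genes, with limma 3.58.1 in R 4.3.3. One model held a mean for each of the 6 groups (eBayes with a variance trend), so all groups shared 1 spread. P-values were adjusted over the 11194 genes by Benjamini-Hochberg, without adjustment over the members alone. The members and lists were chosen with earlier results of these data known. From each other list the text names up to 3 genes called in stiff against soft, by size of change in the mean, or else the 2 most abundant. Also named are Trp53, Camkk2 and the 5 genes most like Cdkn1a, of which 1 is not reported here. Exceptions are named as such. Alternatives were a pseudocount of 0.1, no filter, median-of-ratios scaling, fewer libraries in the model, the replicate block, other thresholds, no variance trend, leaving out libraries and, added after the data were seen, a model without genotype. Without 1 library the other of its group is assumed to vary like the rest. In simulated data with 11194 genes, stiff was set against soft in the mean of both labels only. There 91 of 100 genes changed by 1 on the log2 scale and 97 of 100 changed by 2 were recovered. The changed genes had a mean log2(TPM + 1) above 3, and each gene had the same normal spread in all groups. The simulation thus does not cover the tests within a label, low genes such as Zmat3 or the wider spread of WT stiff.

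GENCODE vM21 (GRCm38) supplied gene coordinates and held 13544 of the symbols in the table. Promoter sequences are from RefSeq (GRCm38.p6). Listed genes not in the table, such as Trp63 and Trp73, were not analysed here.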

Additional observations from a re-analysis of the deposited data

Results flagged for a closer look

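Among the members and the other named genes, 1 gene had a stiff effect that differed between the labelled genotypes by a test of the difference itself. Gadd45a, a p53 target of growth arrest and repair, had a log2 fold change between stiff and soft gels of -1.38 in the libraries labelled WT and of -0.00 in those labelled KO, a difference of 1.38 (SE 0.233, 95% interval 0.85 to 1.90, limma adjusted p = 0.0286). It was lower in 2 of 2 stiff libraries labelled WT than in either soft library, and within the range of the soft libraries in both labelled KO. The difference passed without either stiff library labelled WT (adjusted p = 0.00822 to 0.0169) and did not pass without any 1 of the other 6 soft and stiff libraries (adjusted p = 0.0546 to 0.151). Without the 3 libraries in which Camkk2 went against the label it was 1.07 (adjusted p = 0.964). The part of the labels in this difference was not tested further. Sesn1, another p53 target, had a difference of 1.15 that did not pass (adjusted p = 0.0779), but passed without WT stiff 2 (1.35, adjusted p = 0.00450) and with the replicate number as a block (adjusted p = 0.0164).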

How the results depend on the processing

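The count of members called in stiff against soft moved from 0 to 1 (Cdkn1a) in WT under median-of-ratios scaling and at an adjusted p under 0.1. It was 0 to 1 in WT, 0 in KO, 0 to 2 in the mean and 0 to 1 in the interaction when single libraries were left out, and 0 to 3 in stiff against soft+IL-4. The 2 members called under IL-4 became 0 when an absolute log2 change of 1 or more was required too and 0 without the 3 libraries whose Camkk2 went against the label, and 0 to 1 without single libraries. No called member changed sign. Of 970 member values under alternatives, 942 kept their side of the threshold, 14 passed only in an alternative, 14 passed only in the values reported, and 72 values past no threshold changed sign.

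Counts over all genes moved more. In stiff against soft labelled WT, 1186 genes became 0 with only the 4 libraries compared (1374 at an unadjusted p under 0.05), 444 at this fold limit, 151 without the 3 libraries and 475 to 3065 without single libraries. In KO, 5 became 9 with median-of-ratios scaling, 1 with the libraries compared, 10 at an adjusted p under 0.1, 0 without the 3 libraries (72 at an unadjusted p under 0.05) and 1 to 2 without single libraries. In the mean, 724 became 279 with the libraries compared, 1143 at an adjusted p under 0.1, 151 at the fold limit, 63 without the 3 libraries, 20 with genotype left out of the model and 317 to 2295 without single libraries. In the interaction, 109 became 0 with the libraries compared (852 at an unadjusted p under 0.05), 188 at an adjusted p under 0.1, 62 without the variance trend, 2 without the 3 libraries and 4 to 1785 without single libraries. Under IL-4, 2567 became 487 at the fold limit, 799 without the 3 libraries and 1649 to 2025 without single libraries. In stiff against soft+IL-4, 113 became 25 with the libraries compared, 301 at an adjusted p under 0.1, 20 at the fold limit, 67 without the variance trend, 0 without the 3 libraries (964 at an unadjusted p under 0.05), 0 with genotype left out (1821) and 16 to 3132 without single libraries. Fewer libraries leave fewer degrees of freedom, and apart from that the causes were not tested.

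The labels do not say that the replicate numbers pair the libraries, and the deviations of same-numbered libraries correlated above 0.1 in 3 of 15 pairs of groups. These were the pairs among WT soft, KO soft and KO stiff, at 0.283 to 0.314, and the other 12 lay at -0.0526 to 0.0905. The same 3 groups each hold 1 library whose Camkk2 went against the label, and the part of that in the correlation was not tested. The block was therefore kept as an alternative. With the replicate block, 0 members were called in stiff against soft and 2 under IL-4, as without it, and over all genes 1169 were called in WT, 8 in KO and 713 in the mean. Among the other named genes the block moved 2 calls, as Chek2 in WT no longer passed (adjusted p = 0.0677) and Sesn1 passed in the interaction (1.15, adjusted p = 0.0164). It raised the other p53 targets called in the mean from 3 to 5 and the NRF2 targets called in WT from 1 to 2. Genes listed at 0 made up 10.7% to 13.4% of the table in libraries numbered 1 and 5.90% to 7.54% in those numbered 2. TPM hides depth, so for the least abundant members, Zmat3, Sesn2 and Phlda3, no counting error can be given.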
